A study of Mus musculus with 6 samples.

Results

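Transcripts of the mouse Nlrp4, Nlrp9 and Nlrp14 genes that lie outside the subcortical maternal complex were followed in fully grown oocytes with and without LSM14B. The genes were taken by name, as the rows of the deposited FPKM table for Nlrp4a, Nlrp4b, Nlrp4c, Nlrp4d, Nlrp4e, Nlrp4g, Nlrp9a, Nlrp9b, Nlrp9c and Nlrp14. Of these 10 genes 9 were read from the table, which has 24255 rows, and Nlrp4d was not analysed here. All 9 reached 1 FPKM in at least 1 library and so were among the 6398 genes tested. Nlrp4c did so in Lsm14b-KO libraries only, so the filter itself favoured a rise of this gene. Counts of members below include Nlrp4c, whose test results are no support for a rise. FPKM is fragments per kilobase of transcript, scaled to the mapped fragments of the library, so levels can be set side by side between genes of a library, whereas levels between libraries depend on how each library was scaled.

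The comparison asks which maternal transcripts differ when oocytes lack the RNA-binding protein LSM14B. Lsm14b-KO mice were homozygous for the reporter-tagged insertion allele Lsm14b tm1a(KOMP)Mbp on a C57BL/6J background, and the insertion is present in every cell of the animal, not only in the oocyte. Wild type (WT) mice shared that background, and PMSG, which drives follicle growth, was given to both genotypes (5 IU a mouse) 46 h before collection. Each of the 3 WT and 3 Lsm14b-KO libraries was made from 20 oocytes at the germinal vesicle (GV) stage. The age of the mice was not stated for these libraries. The study's methods speak in general of independent experiments, but nothing states for these libraries that those of a group came from separate mice, so every p-value measures the spread between these libraries, which may be technical.

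NLRP proteins are built from an N-terminal pyrin domain, a nucleotide-binding NACHT domain and C-terminal leucine-rich repeats. Several family members, such as NLRP3, sense danger signals in immune cells and assemble the inflammasome that activates caspase-1. A separate rodent-expanded branch is transcribed mainly in the oocyte, where the mRNAs are stored during growth, and some of its members are maternal-effect genes: NLRP14 is needed by the early embryo and binds UHRF1, and NLRP5 (MATER) is a core subunit of the subcortical maternal complex.

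In the GENCODE vM21 annotation (GRCm38), 8 of the 9 genes measured lie on chromosome 7 and 1, Nlrp4g, on chromosome 9. Nlrp4c lies at chr7:6045161-6105150 (+ strand), Nlrp4b at chr7:10687789-10730168 (+) and Nlrp9b at chr7:19991465-20073306 (+). Nlrp4e lies at chr7:23301192-23362277 (+), with the subcortical maternal complex gene Nlrp5 next to it. Nlrp9c at chr7:26322473-26403700 (- strand), Nlrp4a at chr7:26435113-26476142 (+) and Nlrp9a at chr7:26535023-26575615 (+) stand in a row, and Nlrp14 lies apart at chr7:107166990-107198102 (+). Nlrp4g at chr9:124348872-124356970 (+) is annotated as a transcribed unprocessed pseudogene, and Nlrp4d at chr7:10358873-10388935 (- strand) as an unprocessed pseudogene. The locus given in the deposited table covered a shorter model of Nlrp9c, chr7:26364885-26394243, and started at 20008021 for Nlrp9b.

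How alike the genes are decides how far reads can be assigned to each. Coding sequences were alike within a subfamily and far apart between them. Nlrp4c and Nlrp4e shared 93.9% of aligned coding bases, Nlrp9a and Nlrp9c 87.4%, and Nlrp14 shared between 53.6% (with Nlrp9c) and 55.6% (with Nlrp9b) with the other members. The closest pair is shown over the first 90 coding bases (GRCm38; Nlrp4c at chr7:6060595-6060684 and Nlrp4e at chr7:23301282-23301371, both on the + strand), where 84 bases were identical and the differing bases are in capitals.
Nlrp4c: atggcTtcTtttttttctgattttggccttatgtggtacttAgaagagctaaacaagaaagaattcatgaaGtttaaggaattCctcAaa
Nlrp4e: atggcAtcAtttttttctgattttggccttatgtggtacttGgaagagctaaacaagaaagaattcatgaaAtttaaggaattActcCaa
Over whole transcripts, 3.40% of the 150-base windows of Nlrp4e, the read length used, also occurred exactly in other annotated transcripts, and these were predicted Gm genes. For the other members no window was shared, but reads that differ by a few bases between Nlrp4a, Nlrp4c and Nlrp4e may still be split among them by the aligner, so these values are less certain than that of Nlrp14.

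**Figure D1:**
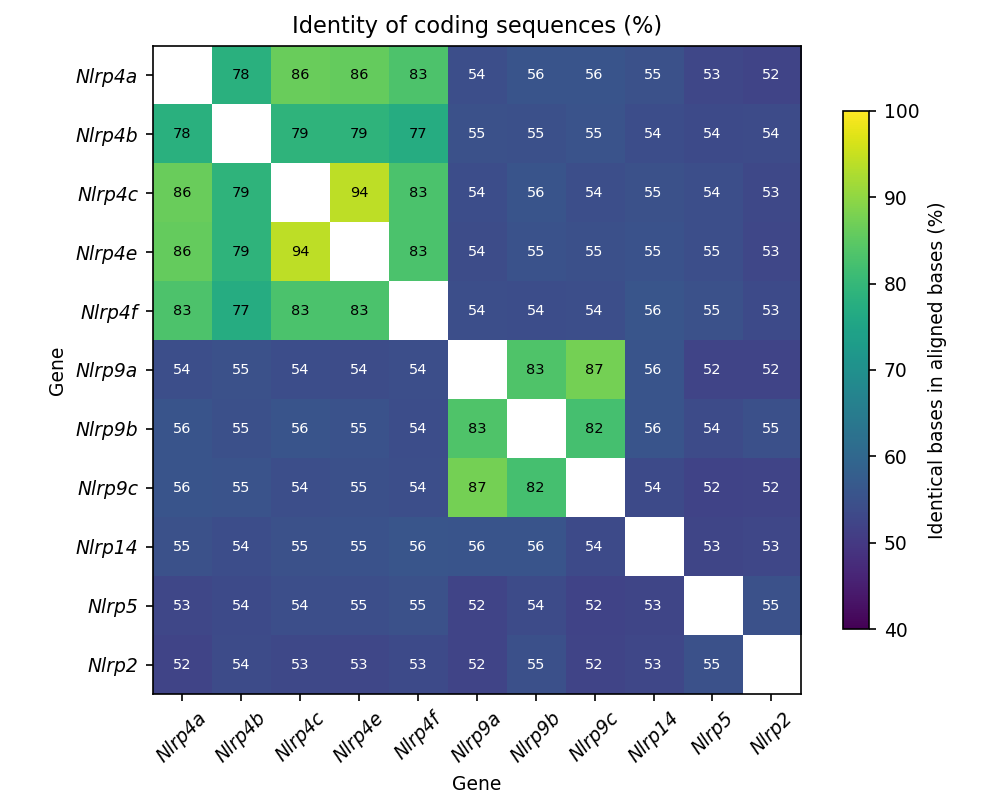
Percentage of identical bases among aligned coding bases for each pair of 8 members with a coding sequence and 3 Nlrp genes of the subcortical maternal complex (Nlrp4f, Nlrp5, Nlrp2), both axes listing the genes. The Nlrp4 and Nlrp9 blocks stand out, with the highest value, 93.9%, for Nlrp4c and Nlrp4e, and Nlrp14 is near 55% to every other member.

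Sequence upstream of the transcription start was read from RefSeq (GRCm38.p6), which gave a 250-base window for 7 of the members: Nlrp4a, Nlrp4b, Nlrp4c, Nlrp4e, Nlrp9a, Nlrp9b and Nlrp9c. Aligned end to end, the most alike windows were those of Nlrp9a and Nlrp9c (195 of 203 aligned bases identical, 96.1%), followed by Nlrp4b and Nlrp4c (155 of 210, 73.8%). The stretch of best local alignment, printed for each pair, had 92.6% identity over 190 aligned bases for Nlrp9a and Nlrp9c and 79.7% over 207 for Nlrp4b and Nlrp4c. These stretches are shown because the genes of a pair, so alike in sequence here, had different levels (Nlrp4b and Nlrp4c) or a different order of libraries (Nlrp9a and Nlrp9c), as described further on. The Nlrp9c window lies upstream of a start at chr7:26403700, whereas the deposited locus of this - strand gene reached only to 26394243. For Nlrp9c the window is thus not next to the model that was measured. Capitals mark the letters CCAAT, or ATTGG where they fall on the other strand. The stretches are Nlrp9a chr7:26534831-26535022 (+), Nlrp9c chr7:26403745-26403935 (- strand), Nlrp4b chr7:10687545-10687756 (+) and Nlrp4c chr7:6044936-6045160 (+), each written 5′ to 3′ on the strand of its gene.
Nlrp9a: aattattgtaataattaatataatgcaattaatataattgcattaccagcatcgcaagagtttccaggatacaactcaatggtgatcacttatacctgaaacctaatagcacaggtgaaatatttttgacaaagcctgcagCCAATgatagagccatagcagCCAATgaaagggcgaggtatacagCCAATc
Nlrp9c: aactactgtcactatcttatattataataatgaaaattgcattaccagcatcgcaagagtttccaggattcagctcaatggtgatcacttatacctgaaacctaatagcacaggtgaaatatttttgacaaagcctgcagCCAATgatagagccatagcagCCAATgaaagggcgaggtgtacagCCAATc
Nlrp4b: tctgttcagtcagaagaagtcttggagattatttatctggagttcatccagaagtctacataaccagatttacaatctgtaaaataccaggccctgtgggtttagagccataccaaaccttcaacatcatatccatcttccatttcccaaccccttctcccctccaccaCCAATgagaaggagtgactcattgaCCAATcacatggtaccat
Nlrp4c: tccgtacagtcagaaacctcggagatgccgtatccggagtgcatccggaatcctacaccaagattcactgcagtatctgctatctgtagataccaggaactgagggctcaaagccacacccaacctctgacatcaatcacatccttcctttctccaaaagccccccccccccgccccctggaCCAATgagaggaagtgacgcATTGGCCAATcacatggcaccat
CCAAT on either strand stood in 5 of the 7 windows (Nlrp4b, Nlrp4c, Nlrp4e, Nlrp9a and Nlrp9c) and in 34.5% of 27025 promoter windows of the same length. At least 2 copies stood in 4 of the 7 windows and in 10.4% of all windows. These 4 were Nlrp4b, Nlrp4c, Nlrp9a and Nlrp9c, the 2 alike pairs printed above, so they do not count as 4 separate observations. CCAAT was also searched only after these sequences had been read. The E-box letters CANNTG, the kind of site bound by FIGLA and SOHLH1, stood in 6 of 7 member windows against 66.0% of all. TAATTG, an element bound by NOBOX, stood in 2 (Nlrp9a and Nlrp9b) against 7.34% of all, and the related TAATTA in 1 (Nlrp9a) against 4.90% of all. TAATTG and TAATTA were searched on both strands. A match describes the letters only and is not a bound site.

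Before the results, the libraries themselves need a description. In WT, Lsm14b itself read 2.77, 3.98 and 1.72 FPKM, whereas the Lsm14b-KO replicates stood at 0, 0 and 0.102 FPKM for this gene, so each library matched its label. The 12 oocyte markers summed to 52564 to 63205 FPKM in WT and 31304 to 75873 FPKM in Lsm14b-KO libraries. Most of this sum was Dppa3, at 47684, 44721 and 34582 FPKM in WT and 63633, 19433 and 34753 FPKM in Lsm14b-KO. Not every marker was abundant: in WT, Zp1 read 5.00, 5.29 and 8.79 FPKM and Ddx4 0.900, 0.700 and 0.388 FPKM. Markers of other cells were low or at 0. The 13 cumulus and granulosa cell genes summed to 9.73 to 13.5 FPKM in WT and 6.13 to 10.2 FPKM in Lsm14b-KO (5 of them, Amh and Foxl2 included, at 0 in every library). In WT most of that sum was Cyp19a1 (aromatase), at 11.5, 8.26 and 10.5 FPKM, which was above Nlrp4c in every WT library. In Lsm14b-KO libraries Cyp19a1 was a smaller part, at 5.47, 3.00 and 5.76 of sums of 8.90, 6.13 and 10.2 FPKM. Fshr read 2.07, 1.91 and 1.82 FPKM there. The 6 macrophage genes summed to at most 0.733 FPKM, and all 6 red blood cell genes read were at 0. The 3 WT libraries were alike (Pearson r across genes of 0.981 to 0.986 on the log2 scale), whereas the Lsm14b-KO libraries were not. Lsm14b-KO replicate 1 correlated with replicate 3 at 0.960, with the WT libraries at 0.952 to 0.954 and with replicate 2 at 0.917, and replicates 2 and 3 correlated at 0.974. With the WT libraries replicate 2 correlated at 0.867 to 0.890 and replicate 3 at 0.917 to 0.929. Summed FPKM was 1029728 in Lsm14b-KO replicate 1, 564671 in replicate 2 and 676656 in replicate 3, against 1141324 to 1244182 in WT. Values from genes of very low FPKM put the relative depth of Lsm14b-KO replicates 1, 2 and 3 at 1.33, 1.95 and 2.17 times that of WT replicate 1. These ratios stand for sequencing depth only if FPKM was scaled to mapped fragments alone, and absolute depth is not known. Because the spread among the Lsm14b-KO libraries was wide, results are given with and without single libraries.

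With all 6 libraries, none of the 9 Nlrp genes passed limma's test at an adjusted p of 0.05, although every one had a higher mean in Lsm14b-KO oocytes. Among all genes tested, 6.38% passed and were higher in Lsm14b-KO, and 21.6% passed in either direction. At an unadjusted p under 0.05, limma gave 2 of the 9 members (Nlrp4c and Nlrp9b) and 2518 of the 6398 genes. The median log2 fold change of the 9 genes, on the log2(FPKM + 1) scale, was 1.19, beside -0.08 over all tested genes, of which 46.8% were positive. Without Lsm14b-KO replicate 1, 8 of the 9 genes passed, all higher in Lsm14b-KO, where 18.0% of all genes passed and were higher and 45.3% passed in either direction. Without Lsm14b-KO replicate 2, 0 of the 9 passed and their median log2 fold change was 0.56, each gene being positive.

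Nlrp14, the maternal-effect gene of the group, was the most abundant in every library. It read 719, 864 and 2573 FPKM in WT replicates 1 to 3 and 815, 6625 and 4772 FPKM in Lsm14b-KO replicates 1 to 3. Lsm14b-KO replicates 2 and 3 lay above all WT libraries, but replicate 1 lay within the WT range, so the groups overlapped. The means were 1385 ± 1031 FPKM in WT and 4071 ± 2968 FPKM in Lsm14b-KO (SD, n = 3 each), a ratio of 2.94. The log2 fold change was 1.34 (SE 0.82, 95% interval -0.54 to 3.22), with a limma adjusted p of 0.247. An exact two-sided permutation test gave p = 0.3, where 0.1 is the smallest that 3 against 3 libraries allow. Leaving out Lsm14b-KO replicate 1 raised the log2 fold change to 2.26, with a limma adjusted p of 0.0139. Leaving out Lsm14b-KO replicate 2 instead lowered it to 0.75, with a limma adjusted p of 0.550.

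**Figure D2:**
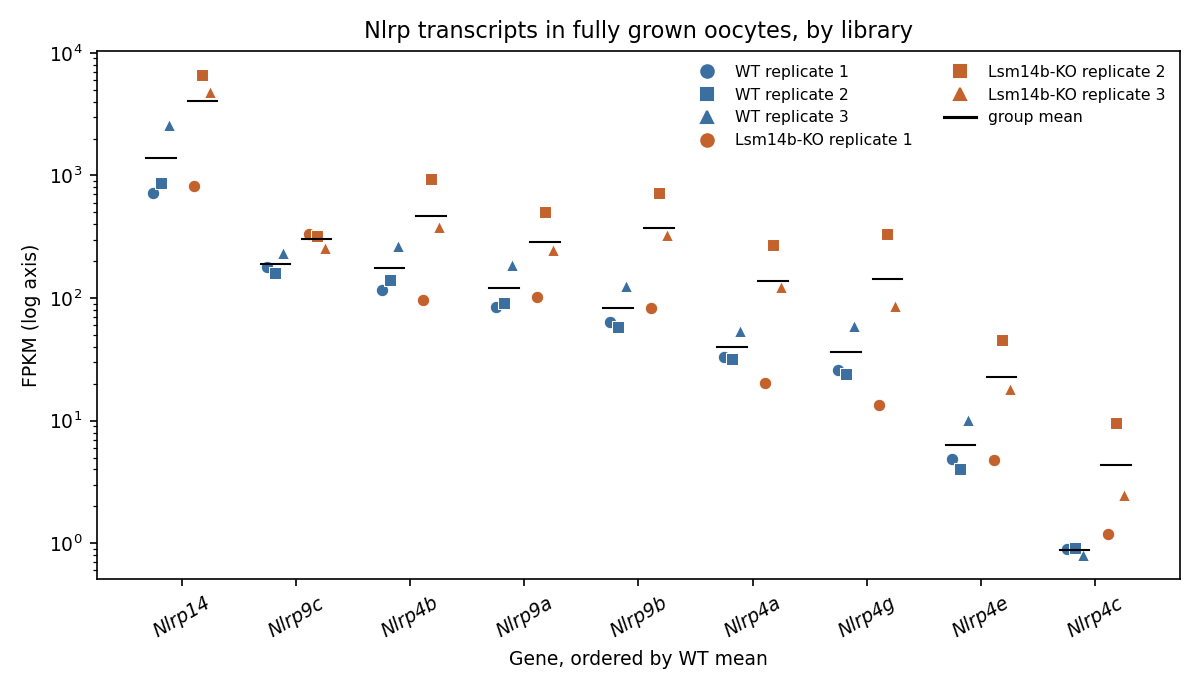
FPKM (log axis) of the 9 Nlrp genes in each library, ordered by WT mean, with WT in blue, Lsm14b-KO in orange, a marker shape for each replicate number and a black line for each group mean. Lsm14b-KO replicates 2 and 3 lie above every WT library for all 9 genes, while Lsm14b-KO replicate 1 lies below WT replicate 3 for 7 of them.

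The Nlrp9 genes were next. NLRP9B is known for sensing viral RNA in the gut epithelium, whereas in the ovary the Nlrp9 genes are oocyte transcripts. Nlrp9b read 63.5, 57.6 and 126 FPKM in WT and 83.5, 713 and 327 FPKM in Lsm14b-KO libraries. Lsm14b-KO replicate 2 was the highest and replicate 1 stood between the WT libraries. Nlrp9b had the largest log2 fold change of the members, 1.79 (SE 0.73, 95% interval 0.10 to 3.47), with a limma adjusted p of 0.111. Its value without Lsm14b-KO replicate 1 was 2.63, with a limma adjusted p of 0.0043, and without replicate 2 it was 1.09, with a limma adjusted p of 0.263. Nlrp9a read 84.2, 91.2 and 185 FPKM in WT and 102, 505 and 249 FPKM in Lsm14b-KO libraries, in the same order of libraries within each group except that WT replicates 1 and 2 were exchanged. Its log2 fold change was 1.05 (SE 0.59, limma adjusted p = 0.215) with all libraries and 1.65 (limma adjusted p = 0.0211) without Lsm14b-KO replicate 1. It came to 0.50 (limma adjusted p = 0.508) without Lsm14b-KO replicate 2.

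Nlrp9c, whose upstream stretch is almost that of Nlrp9a, had another order of libraries. It read 180.1, 159 and 233 FPKM in WT and 331, 319 and 255 FPKM in Lsm14b-KO libraries. Every Lsm14b-KO library lay above every WT library, and Lsm14b-KO replicate 1, the lowest of its group for the other 8 genes, was here the highest. The highest Lsm14b-KO library was 1.30 times the lowest for Nlrp9c, against 4.93 times (Nlrp9a) to 24.6 times (Nlrp4g) for the other 8 genes. The means were 191 ± 38.1 and 302 ± 40.7 FPKM (SD, n = 3 each), and the log2 fold change was 0.67 (SE 0.30, 95% interval -0.02 to 1.36, limma adjusted p = 0.135). Nlrp9c was the 1 member that did not pass without Lsm14b-KO replicate 1 (0.60, limma adjusted p = 0.0739). It passed under each other scaling of the libraries: 1.36 as TPM (limma adjusted p = 0.0217), 1.36 after quantile normalization (0.0232) and 0.93 after median-of-ratios scaling (0.0475). Whether the shorter gene model behind the deposited Nlrp9c value bears on its pattern was not tested.

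Of the Nlrp4 genes, Nlrp4b was the most abundant. It read 116, 141 and 267 FPKM in WT and 96.1, 933 and 382 FPKM in Lsm14b-KO libraries, and Lsm14b-KO replicate 1 was the lowest of the 6. Nlrp4a, with 33.2, 31.6 and 53.9 FPKM in WT and 20.5, 272 and 122 FPKM in Lsm14b-KO, had its lowest value in the same library. The pseudogene transcript Nlrp4g read 25.7, 24.2 and 59.6 FPKM in WT and 13.5, 333 and 86.3 FPKM in Lsm14b-KO. For these 3 genes the Lsm14b-KO libraries fell on both sides of the WT range. The log2 fold changes were 0.99 for Nlrp4b (SE 0.76), 1.19 for Nlrp4a (SE 0.82) and 1.13 for Nlrp4g (SE 1.00), with limma adjusted p of 0.350, 0.303 and 0.411. Without Lsm14b-KO replicate 1 these became 1.86, 2.22 and 2.31, with limma adjusted p of 0.0191, 0.0049 and 0.0225. Under leaving out Lsm14b-KO replicate 2 instead, the same 3 genes came to 0.23, 0.39 and 0.049.

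The closest pair in sequence, Nlrp4e and Nlrp4c, were the least abundant. Nlrp4e, which knockdown work has linked to preimplantation development, read 4.84, 4.03 and 10.2 FPKM in WT and 4.80, 45.3 and 18.2 FPKM in Lsm14b-KO libraries, where replicate 1 stood inside the WT range. Its log2 fold change was 1.32 (SE 0.70, limma adjusted p = 0.188), or 2.11 (limma adjusted p = 0.0116) without that library. It came to 0.61 (limma adjusted p = 0.478) without Lsm14b-KO replicate 2. Nlrp4c read 0.901, 0.922 and 0.802 FPKM in WT and 1.19, 9.49 and 2.49 FPKM in Lsm14b-KO libraries. All 3 Lsm14b-KO values were above all WT values, and WT replicate 3, the highest WT library for the other 8 genes, was here the lowest. The ratio of means was 5.01, the highest of the members, but the log2 fold change was 1.20 (SE 0.50, 95% interval 0.04 to 2.36, limma adjusted p = 0.117). The ratio of means rests mostly on Lsm14b-KO replicate 2, and the added 1 FPKM also lowers the fold change of a gene this low, which was 1.70 with a pseudocount of 0.1 and 1.79 with 0.01. Without Lsm14b-KO replicate 2 it was 0.56. It was 1.69 (limma adjusted p = 0.0191) without Lsm14b-KO replicate 1. Nlrp4c and Nlrp9c were the 2 of 9 members whose Lsm14b-KO values all lay above their WT values, a pattern seen in 19.1% of all tested genes. For Nlrp4c this was favoured in advance, since only its Lsm14b-KO values reached the 1 FPKM needed for testing.

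**Figure D3:**
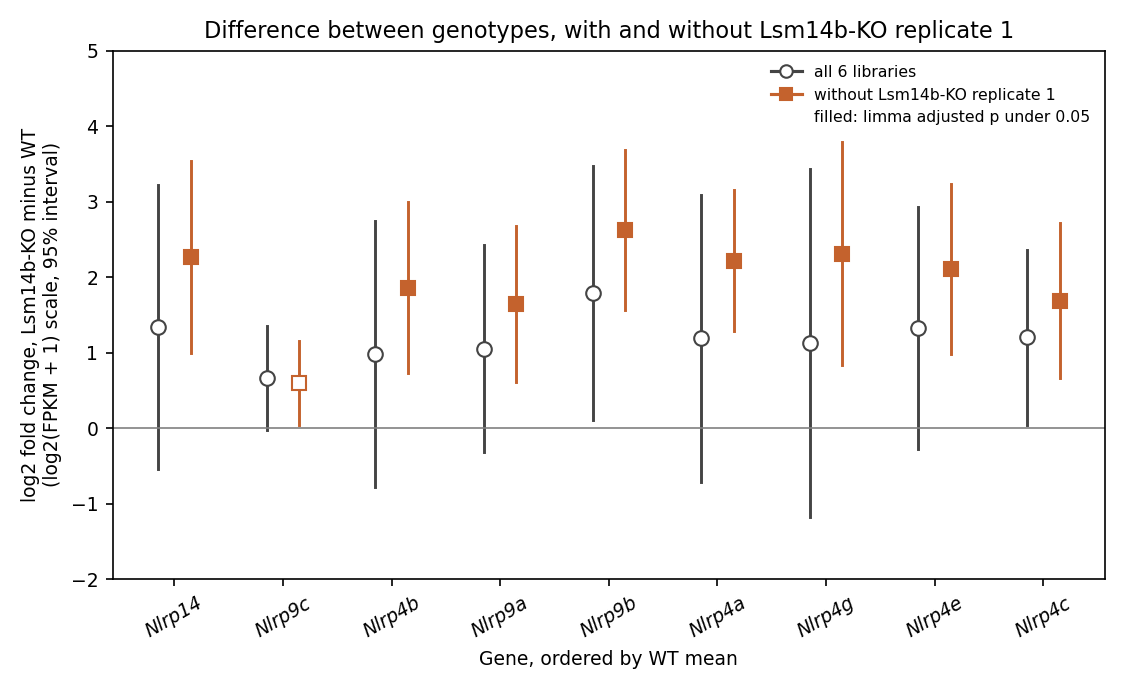
Log2 fold change of each gene, Lsm14b-KO minus WT, on the log2(FPKM + 1) scale, with its 95% interval, for all 6 libraries (grey circles) and without Lsm14b-KO replicate 1 (orange squares). Filled symbols mark a limma adjusted p under 0.05, which 0 of 9 genes reached with all libraries and 8 of 9, all but Nlrp9c, without Lsm14b-KO replicate 1. Leaving out any other single library, not drawn here, gave 0 of 9.

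The libraries ranked alike from gene to gene. WT replicate 3 was the highest WT library for 8 of the 9 genes (all but Nlrp4c), as it was for 33.0% of all tested genes. Lsm14b-KO replicate 2 was the highest of the 6 libraries for 8 of 9 (all but Nlrp9c), against 26.1% of all tested genes, and replicates 2 and 3 both exceeded every WT library for 9 of 9, against 30.9%. Relative to the WT mean of each gene, the median over the 9 genes was 0.76, 0.76 and 1.53 for WT replicates 1 to 3 and 0.76, 6.87 and 2.85 for those of Lsm14b-KO. In Lsm14b-KO replicate 1 single genes ran from 0.37 (Nlrp4g) to 1.74 (Nlrp9c), and in replicate 2 from 1.67 (Nlrp9c) to 10.8 (Nlrp4c). The Lsm14b-KO libraries with high Nlrp values were also those with the lowest summed FPKM and the highest relative depth, and the part of depth in this result was not tested.

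Summed over the 9 genes, WT replicates 1 to 3 held 1228, 1373 and 3510 FPKM, or 0.0987%, 0.117% and 0.307% of all FPKM. In Lsm14b-KO replicates 1, 2 and 3 they made up 1468, 9754 and 6214 FPKM, or 0.143%, 1.73% and 0.918%. The share in Lsm14b-KO replicate 1 thus lay inside the WT range and the other two above it. Within this pool Nlrp14 held 58.6%, 62.9% and 73.3% in WT and 55.5%, 67.9% and 76.8% in Lsm14b-KO libraries, which overlap. The part of Nlrp9c was 14.7%, 11.6% and 6.63% in WT and 22.5%, 3.27% and 4.11% in Lsm14b-KO libraries, lower wherever the pool was larger within the WT group. Lsm14b-KO replicate 1 held the highest part of Nlrp9c and replicates 2 and 3 the lowest. These shares do not change when a library is multiplied by a factor. The 5 Nlrp4 genes held 11.2% to 14.7% in WT and 9.27% to 16.3% in Lsm14b-KO.

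**Figure D4:**
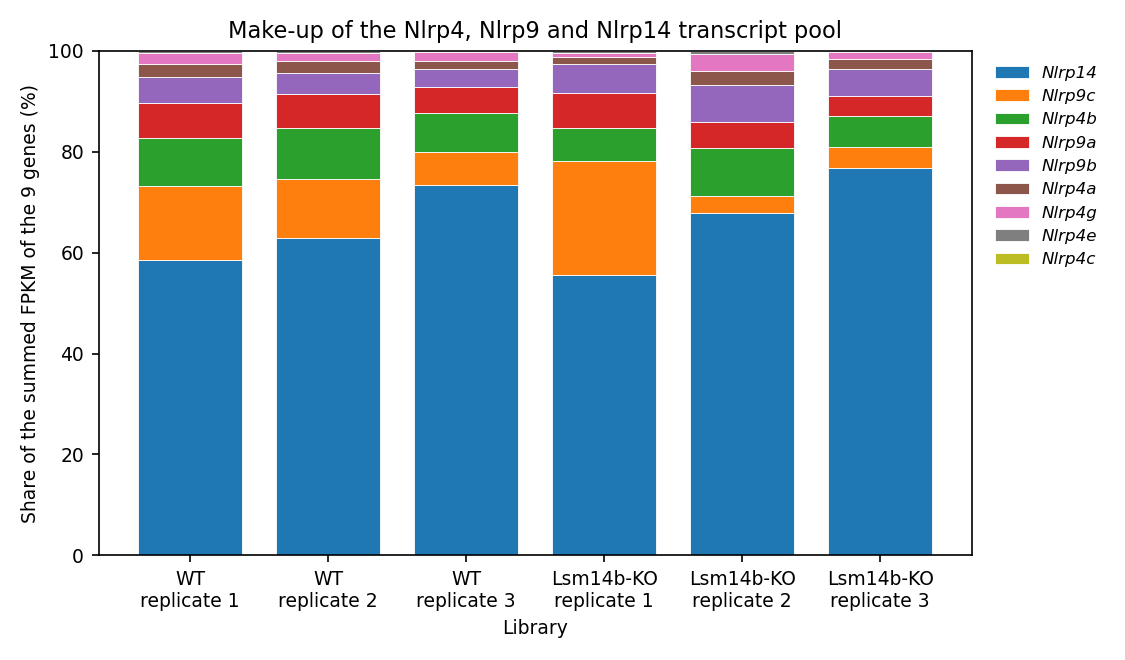
Share of the summed FPKM of the 9 Nlrp genes held by each gene (stacked bars, percent) in each of the 6 libraries. Nlrp14 holds between 55.5% and 76.8% in every library, and the part of Nlrp9c runs from 3.27% in Lsm14b-KO replicate 2 to 22.5% in Lsm14b-KO replicate 1.

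Ordered by WT mean, the levels ran from Nlrp14 (1385 FPKM) through Nlrp9c (191), Nlrp4b (175), Nlrp9a (120.3), Nlrp9b (82.5), Nlrp4a (39.6), Nlrp4g (36.5) and Nlrp4e (6.36) to Nlrp4c (0.875). In 4 places the WT ranges of neighbours in this order did not overlap: Nlrp14 over Nlrp9c, Nlrp9b over Nlrp4a, Nlrp4g over Nlrp4e and Nlrp4e over Nlrp4c. The ranges of Nlrp9c, Nlrp4b, Nlrp9a and Nlrp9b overlapped each with the next, as did those of Nlrp4a and Nlrp4g. Within each single WT library, however, Nlrp4b stood above Nlrp9a and Nlrp9a above Nlrp9b. In Lsm14b-KO oocytes the order of means was Nlrp14, Nlrp4b, Nlrp9b, Nlrp9c, Nlrp9a, Nlrp4g, Nlrp4a, Nlrp4e and Nlrp4c. The range of every gene overlapped with the next, since the Lsm14b-KO libraries differed widely in level. Within each single Lsm14b-KO library, Nlrp14 stood above Nlrp4b, Nlrp4b above Nlrp9b and Nlrp9a above Nlrp4g. Nlrp4a likewise stood above Nlrp4e, and Nlrp4e above Nlrp4c. The other steps were not in the same order in every library. The genes paired by their upstream stretch did not overlap in WT for Nlrp4b (116 to 267 FPKM) and Nlrp4c (0.802 to 0.922 FPKM), while the WT ranges of Nlrp9a (84.2 to 185 FPKM) and Nlrp9c (159 to 233 FPKM) overlapped.

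The tested genes outside the group whose centred log2 values over the 6 libraries were nearest to those of Nlrp14 were Wapal, which codes for a factor that releases cohesin from chromosomes (Euclidean distance 0.86), Accsl (0.89) and Nlrp5 (0.89). Ranked with all 6397 other tested genes, Nlrp4b was the 4th nearest to Nlrp14, Nlrp4e the 6th, Nlrp9b the 9th, Nlrp4a the 12th, Nlrp9a the 20th and Nlrp4g the 45th. Nlrp4c ranked 310 and Nlrp9c 1634, the farthest of the members. The points share 6 libraries, with their depth and scaling, so the ranks are a description.

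Of the 8 subcortical maternal complex genes, 7 did not pass and 1 was higher in Lsm14b-KO, as were 6.38% of all tested genes. It was Padi6, a peptidylarginine deiminase needed for the cytoplasmic lattices of the oocyte, which rose from 64.9 ± 19.1 to 176 ± 53.1 FPKM (SD, n = 3 each) by 1.41 on the log2 scale (limma adjusted p = 0.0304). The median log2 fold change of the 8 genes was 0.57. Without Lsm14b-KO replicate 1, 4 of them passed, beside 45.3% of all tested genes, and with any other single library left out 0 did. The Nlrp genes of this complex also had their highest value in Lsm14b-KO replicate 2. Nlrp5 read 29.3, 34.2 and 131 FPKM in WT and 48.0, 423 and 144 FPKM in Lsm14b-KO libraries, and Nlrp4f 55.4, 60.4 and 88.3 FPKM and 71.0, 412 and 154 FPKM. Neither passed (log2 fold changes of 1.47 and 1.30, limma adjusted p = 0.218 and 0.141), and both did without Lsm14b-KO replicate 1 (2.25 and 1.91, limma adjusted p = 0.0405 and 0.0117). Without Lsm14b-KO replicate 2 the values were 0.70 and 0.65 (limma adjusted p = 0.530 and 0.298). Nlrp2, with 8.41, 7.72 and 10.5 FPKM in WT and 5.73, 20.8 and 9.33 FPKM in Lsm14b-KO, had a log2 fold change of 0.23 (limma adjusted p = 0.694).

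The inflammasome genes that the NLRP family is best known for were mostly listed at 0. Of 21 genes, 12 were at 0 in every library and 17 did not reach 1 FPKM in any. Among the 4 tested genes only Casp8, an apoptotic caspase, passed: its mean was 81.4 ± 16.2 FPKM in WT and 27.5 ± 22.2 FPKM in Lsm14b-KO (SD, n = 3 each). This fall of Casp8 was -1.80 on the log2 scale (limma adjusted p = 0.0459), and as TPM it was -1.13 and did not pass (limma adjusted p = 0.0580). Of the 3 genes linked to NLRP14, Uhrf1, which codes for a regulator of DNA methylation, rose from 5.59 ± 0.417 to 21.9 ± 15.2 FPKM (SD, n = 3 each; log2 fold change 1.57, limma adjusted p = 0.0480). The other tested one did not pass, and the third was at 0 throughout. Leaving out any library but Lsm14b-KO replicate 1 took the calls of both lists to 0. Leaving out that library gave 3 calls among the inflammasome genes (Casp8, Nlrc4 and Naip1) and 2 among those linked to NLRP14. Naip1 read 0.690, 0.865 and 0.719 FPKM in WT and reached 1 FPKM in Lsm14b-KO libraries only, so its call is no support for a rise. Over all tested genes, 21.6% passed with all libraries and 45.3% without Lsm14b-KO replicate 1.

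Among 6 oocyte transcription factors, 2 of the 4 tested were higher in Lsm14b-KO and none lower, beside 6.38% of all tested genes that were higher. Nobox, a homeobox factor that drives oocyte genes, rose from 12.5 ± 3.42 to 65.8 ± 28.8 FPKM (SD, n = 3 each; log2 fold change 2.25, limma adjusted p = 0.0064), with every Lsm14b-KO library above every WT library. Lhx8, a LIM homeobox factor, rose from 9.18 ± 0.752 to 16.8 ± 2.26 FPKM (log2 fold change 0.80, limma adjusted p = 0.0447, n = 3 each), and did not pass after a length and GC correction (limma adjusted p = 0.0824). The count of 2 fell to 1 without WT replicate 1, WT replicate 2, Lsm14b-KO replicate 2 or Lsm14b-KO replicate 3. Without WT replicate 3 it stayed at 2 with a change of genes, since Lhx8 did not pass (limma adjusted p = 0.132) and Taf4b, a germ cell subunit of the transcription machinery, did (limma adjusted p = 0.0404). Taf4b read 0.514, 0.587 and 1.55 FPKM in WT and 1.94, 2.22 and 1.99 FPKM in Lsm14b-KO. With WT replicate 3 left out, only its Lsm14b-KO values were at 1 FPKM or more, so that call is no support for a rise. Of the 12 oocyte markers, 1 was higher and 2 were lower, beside 21.6% of all tested genes that passed in either direction. The higher one was Ddx4, a germ cell RNA helicase (log2 fold change 1.35, limma adjusted p = 0.0050). It read 0.900, 0.700 and 0.388 FPKM in WT and 2.86, 3.49 and 3.31 FPKM in Lsm14b-KO. Only its Lsm14b-KO values reached the 1 FPKM needed for testing, so its test is no support for a rise. The RNA-binding protein gene Dazl fell by 1.56 (limma adjusted p = 0.0131) and the linker histone gene H1foo by 1.09 (limma adjusted p = 0.0310) on the log2 scale. As TPM the differences of Dazl and H1foo did not pass (limma adjusted p = 0.125 and 0.0935). Of the cumulus and granulosa cell genes, Cyp19a1 fell by 0.98 on the log2 scale (limma adjusted p = 0.0426), from 10.1 to 4.75 FPKM in the mean, and did not pass as TPM (limma adjusted p = 0.309). The other 2 tested genes of that list went the other way without passing. Fshr had a log2 fold change of 0.73 (limma adjusted p = 0.0923) and Inha of 0.38 (limma adjusted p = 0.301). Inha was tested only because it read 1.06 FPKM in Lsm14b-KO replicate 3, so the filter favoured its direction. In bulk samples, fewer cells of such a type and less RNA per cell cannot be told apart. Without WT replicate 3 the limma adjusted p was 0.0629 for Dazl, 0.117 for H1foo and 0.129 for Cyp19a1.

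The genes around the members were counted too. Within 500 kb of a member the table held 186 other genes, of which 37 were tested, with a median log2 fold change of 0.23. By limma 0 of the 37 were higher in Lsm14b-KO and 3 were lower, beside 21.6% of all tested genes that passed in either direction. The 3 were Gemin7, which codes for a subunit of the SMN complex and fell by 1.66 on the log2 scale (limma adjusted p = 0.0078), the cytochrome P450 gene Cyp2b13 (-1.68, limma adjusted p = 0.0322) and Igsf23 (-1.32, limma adjusted p = 0.0334). As TPM, Cyp2b13 and Igsf23 did not pass (limma adjusted p = 0.0550 and 0.0916). The neighbours' count was 0 without WT replicate 1, WT replicate 2 or Lsm14b-KO replicate 3, 1 without WT replicate 3 and 7 without Lsm14b-KO replicate 1, and 12 after the length and GC correction. Without Lsm14b-KO replicate 1, 45.3% of all tested genes passed. Across all tested genes 1383 passed, of which 29.5% were higher in Lsm14b-KO, and with 1 library left out 315 (without Lsm14b-KO replicate 3) to 2898 (without Lsm14b-KO replicate 1) did. That split depends on scaling: it was 63.2% as TPM, 42.4% after quantile normalization and 43.9% after median-of-ratios scaling. TPM moved the median log2 fold change of all genes from -0.08 to 0.40, and the 9 Nlrp genes then stood 1.41 above that median, as against 1.26 on the FPKM scale. The fold changes of all 9 stayed positive under each of these scalings.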

How the data were processed

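RNA-seq was done on 6 libraries of 20 GV-stage oocytes each, amplified by Smart-seq2 (the library kit is named in different ways in the sources). Per the labels, the authors aligned reads to mm10 with TopHat2 (2.0.13) and deposited FPKM values calculated and normalized with Cufflinks (2.2.1). The submitters' processing notes also name Cuffnorm and Cuffdiff, and the gene annotation is not given in the sources used here. The deposited table also holds the authors' group comparison (fold changes, p and q values), which was not used. FPKM carries no counts, so no depth or counting interval could be given beyond relative depth, taken from the commonest ratio among genes under 0.1 FPKM in both libraries. Dates stood in place of 27 gene symbols, and 0 columns belonged to other samples.

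Genes with at least 1 FPKM in any library were tested on log2(FPKM + 1) with limma 3.58.1 (R 4.3.3, trended eBayes), two-sided, with Benjamini-Hochberg adjustment over 6398 genes. The procedure was tested on simulated data. Single genes were also given an exact permutation test. Named were all members, Lsm14b, Nlrp5, Nlrp4f and Nlrp2, up to 4 genes past an adjusted p of 0.05 in each list, and the 3 genes nearest to the most abundant member. Members and lists were chosen with earlier results of these data known, and CCAAT was searched after the sequences had been read. Sequences and positions came from RefSeq promoters and GENCODE vM21 transcripts, compared with blastn 2.17.0 and Biopython 1.88. Same-numbered libraries correlated in their deviations at 0.19, -0.13 and 0.02, so no pairing by number was seen. With so few libraries a group, these values cannot show that the libraries were unpaired. Alternatives were other pseudocounts, filters and scalings, a length and GC correction (98.8% of tested genes had both), untrended eBayes, a replicate block, and leaving out each library.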

Additional observations from a re-analysis of the deposited data

How the results depend on the processing

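The count of Nlrp genes past an adjusted p of 0.05 by limma, 0 with all libraries, was 1 (Nlrp9c) under TPM, quantile or median-of-ratios scaling, and ranged from 0 to 8 when each library was left out, the 8 coming without Lsm14b-KO replicate 1. Without that library the log2 fold changes that came to pass were 2.22 (Nlrp4a), 1.86 (Nlrp4b), 1.69 (Nlrp4c), 2.11 (Nlrp4e), 2.31 (Nlrp4g), 1.65 (Nlrp9a), 2.63 (Nlrp9b) and 2.26 (Nlrp14). Leaving out each library gave ranges of 0.39 to 2.22 (Nlrp4a), 0.23 to 1.86 (Nlrp4b), 0.56 to 1.69 (Nlrp4c), 0.61 to 2.11 (Nlrp4e), 0.049 to 2.31 (Nlrp4g), 0.50 to 1.65 (Nlrp9a), 1.09 to 2.63 (Nlrp9b), 0.55 to 0.82 (Nlrp9c) and 0.75 to 2.26 (Nlrp14), and of 0.56 to 2.11 for their median. Nlrp9c came to 1.36 as TPM, 1.36 by quantile and 0.93 by median-of-ratios scaling. All 143 values of single members under the alternatives were positive, and 11 passed; Nlrp4c has no value under the filter of a mean of 5 FPKM.

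Of all tested genes 1383 passed, 720 with no filter, 862 with a mean of at least 5 FPKM, and 315 (without Lsm14b-KO replicate 3) to 2898 (without Lsm14b-KO replicate 1) with a library left out. Subcortical maternal complex calls (1) were 0 with no filter, 2 as TPM or quantile, and 0 to 4 with a library left out. Inflammasome calls (1) were 0 with a pseudocount of 0.01 or no filter, 2 by median-of-ratios, and 0 to 3. Calls among genes linked to NLRP14 (1) were 0 with a pseudocount of 0.01, no filter or untrended eBayes, and 0 to 2. Oocyte transcription factor calls (2) were 1 with no filter or the length and GC correction, 3 as TPM or by median-of-ratios scaling, and 1 to 2. Neighbour calls (3) were 1 with no filter, 6 as TPM, 12 with the length and GC correction, and 0 to 7. With a replicate block the calls were 1244 genes and 0 members, with 2 inflammasome genes and 1 transcription factor. Whether the numbers pair the libraries is not known. The cause of these shifts was not tested.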
